A study of Mus musculus with 7 samples.

Results

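Mast cells were looked for among single cells of the mouse stomach. They were chosen by transcript counts alone: a well was taken as a mast cell well if it held at least 1000 unique molecular identifiers (UMIs, each marking 1 captured transcript) without spike-ins and if the protease transcripts Cpa3, Tpsb2, Mcpt1, Mcpt2, Cma1 and Tpsab1 together made up at least 0.5% of them. Of 2688 wells, 2235 reached 1000 UMIs and 109 met the rule. The cells came from gastric glands of wild-type C57BL/6 mice, squeezed out after chelation and digested. Living cells, which exclude the dye DAPI, were sorted 1 to a well in plates of 384 wells, and the labels name no surface marker used for selection. Transcripts were counted by SORT-seq, a plate method built on CEL-seq2 chemistry. There were 4 plates from the corpus, the acid-secreting body of the stomach, and 3 from the pylorus, its outlet. The labels give no age or sex and do not tie plates to animals, so every p-value measures the spread between plates.

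Mast cells are long-lived, granule-filled leukocytes of connective tissue and mucosa. Their granules store proteases (tryptases, chymases and carboxypeptidase A3) and amines on a scaffold of serglycin, and the contents are released when antigen cross-links IgE on the high-affinity Fc epsilon receptor. Growth and survival depend on the receptor Kit, and the receptor for interleukin 33, encoded by Il1rl1, activates them. In the mouse, mucosal mast cells are known for the chymases Mcpt1 and Mcpt2, and connective tissue mast cells for Mcpt4, Cma1, the tryptases and the receptor Mrgprb2. All 7 markers given for the label, Cpa3, Tpsb2, Mcpt1, Mcpt2, Cma1, Gata2 and Il1rl1, were far higher in the mast cell wells than in the other kept wells of all 4 plates that held at least 10 such wells. For the first 5 of these the rule itself sets that direction. Transcripts known from connective tissue mast cells were present in the same wells, as described with the proteases.

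The genes that stood highest in these wells included Gata2, a GATA-family transcription factor, and the promoters of several others are shown for that reason. Sequences are the 250 bases before the transcription start in the RefSeq table of build GRCm38.p6, on the coding strand, with capitals marking matches to AGATAA or AGATAG or TGATAA or TGATAG on either strand, the letters of the GATA motif. Cpa3 lies on chr3:20242182-20242431 (minus strand), Cma1 on chr14:55944676-55944925 (minus), Mcpt1 on chr14:56017714-56017963 (plus) and Ms4a2, the beta chain of the Fc epsilon receptor, on chr19:11623720-11623969 (minus).
Cpa3: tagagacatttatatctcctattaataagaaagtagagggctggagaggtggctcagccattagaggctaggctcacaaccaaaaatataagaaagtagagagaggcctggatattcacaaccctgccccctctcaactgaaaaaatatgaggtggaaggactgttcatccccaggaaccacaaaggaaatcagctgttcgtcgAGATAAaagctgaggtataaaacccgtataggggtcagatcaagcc
Cma1: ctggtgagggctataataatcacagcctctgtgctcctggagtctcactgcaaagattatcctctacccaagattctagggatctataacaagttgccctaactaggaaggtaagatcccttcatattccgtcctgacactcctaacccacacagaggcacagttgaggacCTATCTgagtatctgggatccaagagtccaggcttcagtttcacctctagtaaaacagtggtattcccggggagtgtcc
Mcpt1: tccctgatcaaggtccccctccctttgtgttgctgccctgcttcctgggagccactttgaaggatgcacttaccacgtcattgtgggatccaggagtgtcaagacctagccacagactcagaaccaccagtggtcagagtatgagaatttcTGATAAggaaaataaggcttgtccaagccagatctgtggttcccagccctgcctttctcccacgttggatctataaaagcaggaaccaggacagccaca
Ms4a2: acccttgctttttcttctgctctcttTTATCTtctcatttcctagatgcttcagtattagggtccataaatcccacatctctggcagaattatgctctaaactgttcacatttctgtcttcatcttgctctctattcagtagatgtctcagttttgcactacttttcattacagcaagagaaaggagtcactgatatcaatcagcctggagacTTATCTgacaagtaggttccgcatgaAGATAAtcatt
The first base of the match was 46 bases before the start in Cpa3, 79 in Cma1 and 99 in Mcpt1. Ms4a2 held 3 matches. Of the 20 genes with the largest ratio between mast cell wells and other wells, 13 had an entry in the table, and 10 of those 13 held a match in at least 1 promoter, as did 29.7% of the 27025 genes in the table. Gata2, Laptm5 and Atp8b5 held none. A match is a description of these letters and not a binding site.

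Depth set what could be seen. The plates held 2646492 to 9511078 UMIs. Spike-ins took 4.27% of the UMIs of corpus replicate 1 and 6.55% of those of pylorus replicate 1, against 0.256% to 0.426% in the other 5. Mast cell wells were shallower than the rest, with a median of 3691 UMIs (lowest 1129, highest 15631). In the 4 plates with at least 10 of them the medians were 4039 UMIs for mast cell wells and 25003 for other wells. No doublet caller was run, since 1 cell was sorted per well. Plates share the same 384 well numbers. The 109 mast cell wells had 97 distinct numbers, 12 numbers occurred in 2 plates and none in 3 or more.

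The rule separated the wells without a middle ground. The mast cell well with the lowest share had 0.649% of its UMIs from the 6 transcripts (22 of 3390 UMIs, corpus replicate 3), and the next had 0.832% (12 of 1442, pylorus replicate 2). The highest well outside the rule had 0.160% (2 of 1252, corpus replicate 4), followed by 0.139% (27 of 19488, same plate). The median over the 109 wells was 4.96% and the highest 17.7%. No rule transcript was counted in 815 of the kept wells.

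**Figure D1:**
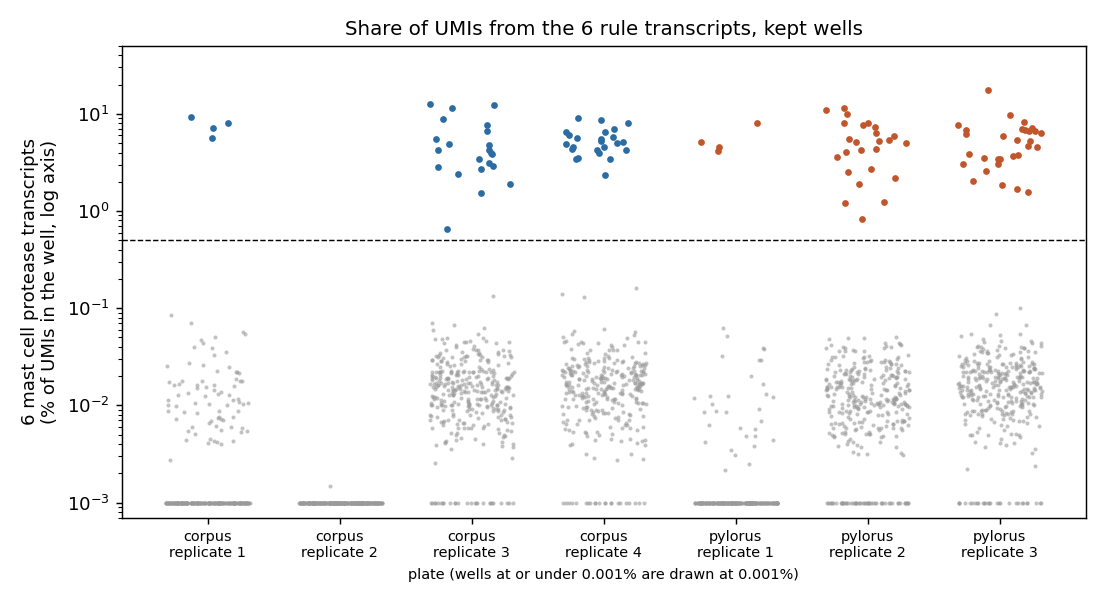
Share of each kept well's UMIs from the 6 rule transcripts (percent, log axis) by plate. Coloured points are the 109 mast cell wells, grey points the other wells, and the dashed line is the rule's 0.5%. Corpus replicate 2 has no coloured point, and no well lies between 0.160% and 0.649%.

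Mast cell wells were found in 6 of the 7 plates. Among the corpus plates, replicate 1 held 4 of 278 kept wells (1.44%, Wilson 95% interval 0.561% to 3.64%), replicate 2 held 0 of 279 (3 counts would be 1.08%), replicate 3 held 22 of 361 (6.09%, 4.06% to 9.05%) and replicate 4 held 24 of 334 (7.19%, 4.88% to 10.5%). Among the pylorus plates, replicate 1 held 4 of 250 (1.60%, 0.624% to 4.04%), replicate 2 held 25 of 364 (6.87%, 4.70% to 9.94%) and replicate 3 held 30 of 369 (8.13%, 5.75% to 11.4%). Intervals and floors cover counting error only. The mean share was 3.68% ± 3.50 (SD, n = 4) in corpus and 5.53% ± 3.46 (SD, n = 3) in pylorus plates, and an exact two-sided permutation test over the 35 splits gave p = 0.543 (the smallest it allows is 0.0286). The difference was smaller than the spread between plates of 1 region. The 2 plates with the highest spike-in share, 1 of each region, both had low shares. In the 4 plates with at least 10 mast cell wells the means were 6.64% ± 0.772 (SD, n = 2) and 7.50% ± 0.892 (SD, n = 2), with exact permutation p = 0.667, in a design that cannot go below 0.333. The kept wells of corpus replicate 2 held 1 UMI of the 6 transcripts in all.

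Mast cell wells contributed 1.32% of the UMIs of those 4 plates and 79.4% to 84.1% of the UMIs of the 6 transcripts. The remainder was spread thinly: in other wells the 6 transcripts summed to 142 to 178 CPM (UMIs of a gene per 1000000 UMIs), against 56440 to 62339 CPM in mast cell wells. The values below are CPM over the summed wells of a plate, in the order corpus replicates 3 and 4, pylorus replicates 2 and 3, unless another order is given. Comparisons of mast cell wells with other wells are descriptions without a test, since the same counts chose the wells. As background, 512 of the 790 genes with at least 100 CPM in the mast cell wells of all 4 plates, or 64.8%, were higher there than in the other wells in all 4, and 140 were lower in all 4. The median log2 ratio over the 790 (a pseudocount of 2 CPM added on both sides) was 0.63. Counts given below for gene lists take in members at any level, so this share is not a like background for them. Those for Fc epsilon signalling, transcription factors, adhesion, amine storage, lipid mediators, cytokines and basophil genes were near or below 64.8% and are descriptions only.

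Among the proteases, the chymase gene Mcpt2 was the most abundant. Mcpt2 stood at 24675, 24714, 21522 and 22106 CPM in mast cell wells and at 63.6 to 95.7 CPM in other wells. Mcpt1, its neighbour in the family, was more variable, at 11147, 5105, 9346 and 11736 CPM. Cpa3, which encodes carboxypeptidase A3, was at 7041, 8068, 10026 and 9506 CPM, and Cma1, a chymase gene known from connective tissue mast cells, at 3841, 3095, 4824 and 3735 CPM. The tryptase gene Tpsb2 was at 9578, 11230, 12254 and 7525 CPM, and the related tryptase gene Tpsab1 at 2568, 4228, 4367 and 2686 CPM. Cpa3 was lower and Mcpt2 higher in both corpus plates than in both pylorus plates, and the regions overlapped for the other 4. As background, 351 of the 1666 genes tested between regions were higher in pylorus without overlap and 220 were lower. Neither Cpa3 nor Mcpt2 passed the test between regions described below. How the authors' counting treated reads that match both Tpsb2 and Tpsab1, if any, is not given in the sources used here. CEL-seq2 counts transcript 3′ ends, so these levels do not scale with transcript length.

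Single wells differed in which proteases they held. All 6 transcripts were counted in 56 wells, 5 in 38, 4 in 9, 3 in 5 and 2 in 1. Cpa3 was counted in all 109 wells, Mcpt2 in 108, Tpsb2 in 100, Cma1 in 96, Tpsab1 in 94 and Mcpt1 in 72. The median depth was 3679 UMIs in the 72 wells with Mcpt1 and 3745 UMIs in the 37 without. Where it was present, Mcpt1 could dominate. It took at least 20% of the rule UMIs in 28 wells, 5% to under 20% in 19 and less than 5% in 62. The highest single-well level of Mcpt1 was 77533 CPM against a median of 1064 CPM, while Cpa3 ran from 693 to 21945 CPM around a median of 7586 CPM. Wells of each kind were found in both regions. Within plates, Spearman's rho between Mcpt1 and Mcpt2 was 0.52 (22 wells), -0.00095 (24), 0.23 (25) and 0.25 (30), and between Tpsb2 and Tpsab1 0.70, 0.66, 0.64 and 0.70. These are descriptions over wells of 1 plate that share library and depth.

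**Figure D2:**
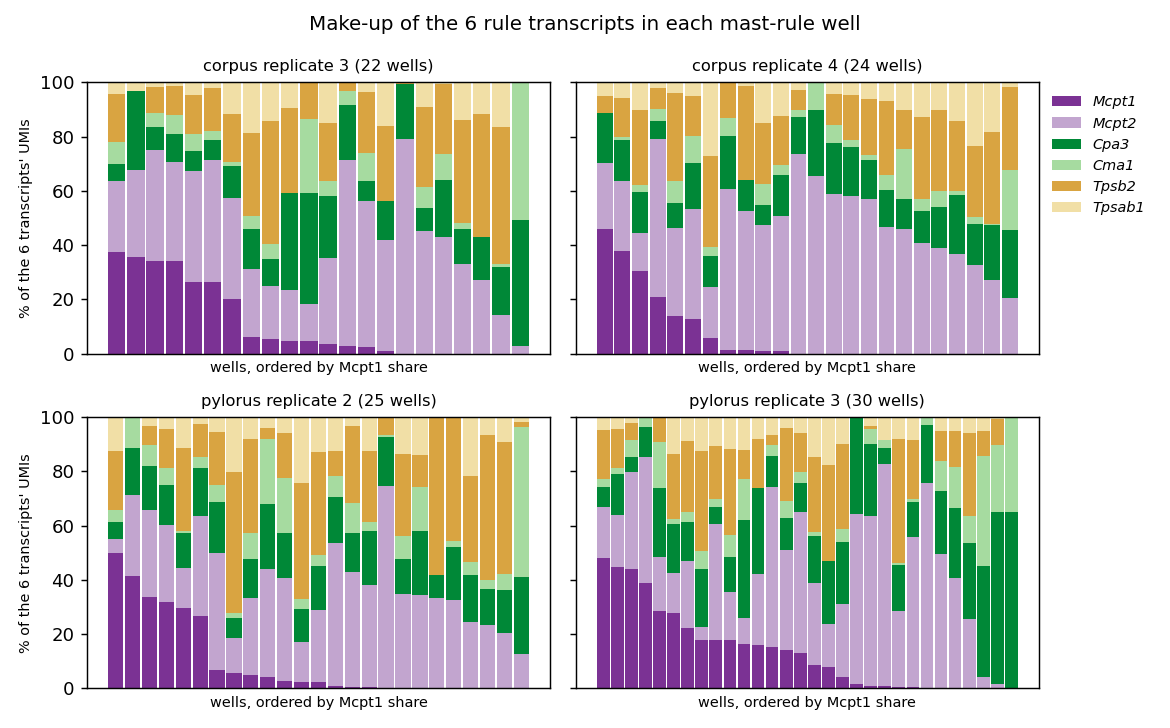
Percent of the UMIs of the 6 rule transcripts that each transcript took (stacked bars, 1 per well, ordered by the share of Mcpt1) in the 4 plates with at least 10 mast cell wells. Wells with a large Mcpt1 share stand on the left of every panel beside wells with none, and a few wells at the right hold mostly Cpa3 and Cma1.

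The proteases outside the rule also differed between wells. Mcpt4, the chymase gene of connective tissue mast cells, was counted in 13 wells, 12 of them with at least 3 UMIs and a highest count of 24. Of those 13 wells, 11 also held Mcpt1 and all 13 held Mcpt2, against 72 and 108 of all 109 mast cell wells. The chymases named for the mucosal and the connective tissue type were thus counted in the same wells. Mcpt8, known as a basophil protease gene, was counted in 10 wells, 5 of them with at least 3 UMIs. No well held both Mcpt4 and Mcpt8, but with 13 and 10 wells among 109 this cannot show that the 2 exclude each other. In 4 wells Mcpt1 and Mcpt2 together took less than 5% of the rule UMIs, while Cpa3 took 53.4% and Cma1 36.3%. Of these 4 wells, 1 from corpus and 3 from pylorus plates, 3 held Mcpt8 and 1 held Mcpt4, and all 4 held Gata2 and Il1rl1. The subset was defined after its values were seen. Prss34, another basophil protease gene, was counted in 4 wells with 7 UMIs in all. Tpsg1, a membrane-anchored tryptase gene, was at 359, 934, 546 and 594 CPM against 0.245 to 1.03 CPM in other wells. Ctsd, the lysosomal protease gene cathepsin D, was at 289, 566, 579 and 463 CPM against 155 to 197 CPM. Gzmb was not counted in mast cell wells, and Ctsg, Mcpt9 and Cma2 were each counted in 1 or 2.

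Of 19 receptor genes listed for mast cells, 15 were higher in mast cell wells in all 4 plates (background 64.8%) and 1 was lower, with a median log2 ratio of 6.18. Il1rl1 stood at 1460, 1991, 2094 and 2043 CPM against 5.34 to 8.82 CPM in other wells, and mast cell wells held 78.8% of its UMIs in these plates. Kit, the stem cell factor receptor, was at 1015, 1387, 1170 and 1533 CPM. The genes of all 3 chains of the Fc epsilon receptor were counted in the summed wells of each plate. Over the 109 wells, Fcer1a was counted in 66, Ms4a2 in 95 and Fcer1g in 94. The alpha chain gene Fcer1a was at 398, 462, 379 and 518 CPM, the beta chain gene Ms4a2 at 851, 991, 880 and 967 CPM, and the shared gamma chain gene Fcer1g at 757, 878, 758 and 953 CPM. Csf2rb, the common beta chain gene of the receptors for interleukin 3, interleukin 5 and GM-CSF, was at 481 to 602 CPM, and Csf2rb2, the beta chain gene of the mouse interleukin 3 receptor alone, at 356 to 547 CPM. Cd200r3, an activating receptor gene of mast cells and basophils, was at 726, 1151, 1159 and 1153 CPM. Mrgprb2, the receptor for basic secretagogues known from connective tissue mast cells, was at 265, 330, 501 and 193 CPM. It was counted in 57 of the 109 wells, and 37 of those 57 also held Mcpt1, as did 72 of all 109. With every well thinned to 1000 UMIs, Mrgprb2 was seen in 20.2% of mast cell wells and in 0 of the 2126 others, which allows up to 0.141%, and Il1rl1 in 77.1% and 0.376%. Unthinned, the shares were 52.3% and 0.941% for Mrgprb2 and 96.3% and 9.60% for Il1rl1. Cd63, the gene of a granule membrane protein exposed on degranulation, was the most abundant of the list at 2662, 3614, 3487 and 3376 CPM, and other wells held 290 to 406 CPM. C5ar1 was not counted, and Cd9 was lower than in other wells at 0 to 15.6 CPM against 77.6 to 105 CPM. Il3ra, the alpha chain gene of the interleukin 3 receptor, was counted in 1 of 109 wells, at 0 to 7.81 CPM.

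Behind the receptor, 11 of 17 genes listed for Fc epsilon signalling were higher in all 4 plates (background 64.8%) and 3 were lower. Their median log2 ratio was 3.45. Rgs1, a regulator of G-protein signalling, was the highest of this list in every plate, at 874, 802, 1649 and 1181 CPM, followed by the adaptor gene Lat2 at 414, 481, 602 and 628 CPM. Inpp5d, the gene of the inhibitory phosphatase SHIP1, was at 289, 302, 323 and 387 CPM, and the adaptor gene Lat overlapped with it at 258, 349, 368 and 276 CPM. The kinase genes Lyn, Fyn, Syk and Btk stood lower, between 62.4 and 189 CPM.

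**Figure D3:**
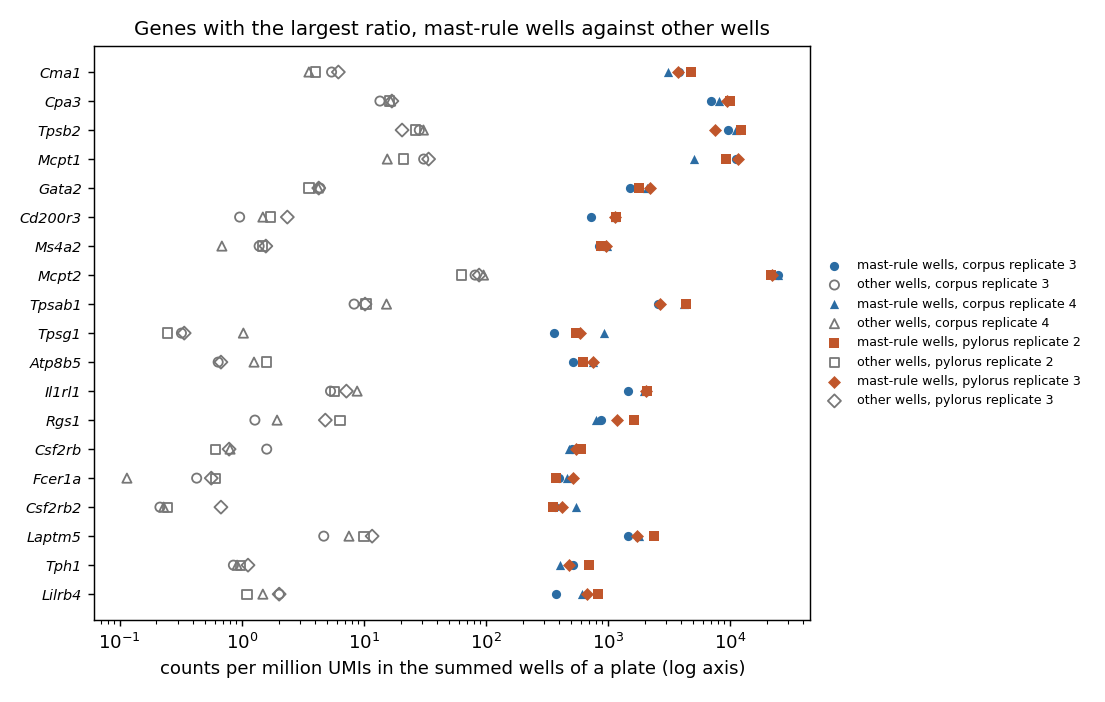
Level (CPM over the summed wells of a plate, log axis) of 19 of the 20 genes with the largest mean ratio of mast cell wells to other wells. Filled symbols are mast cell wells and open symbols the other wells of the same plate. Every filled symbol lies to the right of every open symbol of its gene.

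Of 13 transcription factor genes of the mast cell lineage measured, 8 were higher in all 4 plates (background 64.8%) and 2 were lower. Their median log2 ratio was 4.24. Gata2 stood at 1530, 2085, 1794 and 2209 CPM, counted in 101 of 109 wells, against 3.55 to 4.38 CPM in other wells. Tal1, a partner of GATA factors, was at 320, 595, 446 and 552 CPM, Mitf at 180, 255, 267 and 242 CPM, Runx3 at 250, 236, 156 and 193 CPM and Ikzf1 at 187, 311, 156 and 186 CPM. Gata1 was low, at 54.6, 37.7, 123 and 75.9 CPM. Zfpm1, which encodes the GATA1 partner FOG1, was below the other wells, at 11.1 to 28.3 CPM against 69.8 to 89.3 CPM. Adhesion genes known from mucosal mast cells were counted too: the integrin subunit genes Itgae at 164, 132, 145 and 145 CPM and Itgb7 at 250, 283, 256 and 290 CPM, whose products pair and bind E-cadherin, and Itga2b at 351, 717, 590 and 621 CPM. Cd44, the hyaluronan receptor gene, was at 406 to 552 CPM against 13.0 to 21.9 CPM. Of 10 genes in that list, 6 were higher in all 4 plates (background 64.8%). Lower were 2, Itgb1 (82.8 to 109 CPM against 133 to 143 CPM) and Alcam (9.44 to 34.5 CPM against 182 to 205 CPM).

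Genes of amine storage divided between serotonin and histamine. Tph1, the rate-limiting enzyme of serotonin synthesis outside the nervous system, stood at 515, 406, 702 and 476 CPM in mast cell wells. Other wells held 0.854, 0.916, 0.980 and 1.12 CPM, so 87.6% of the Tph1 UMIs of these plates lay in mast cell wells. Ddc, which encodes the next enzyme of that pathway, was at 250, 274, 468 and 221 CPM against 20.5 to 38.0 CPM. Hdc, which makes histamine, did not stand out: it was at 85.9, 56.6, 223 and 117 CPM in mast cell wells and at 180, 275, 434 and 378 CPM in other wells. Enterochromaffin-like cells of the gastric glands are also known to make histamine. Slc18a2, the vesicle transporter of both amines, was at 593, 755, 680 and 683 CPM against 155 to 292 CPM. In the 274 other wells no deeper than the deepest mast cell well it was higher than in mast cell wells, at 1525 CPM. Those wells also held much Hdc (1580 CPM) and the endocrine transcript Chga (18727 CPM). Srgn, the gene of the serglycin core protein, was at 1366, 1293, 1337 and 1691 CPM against 3.95 to 10.7 CPM. Of 13 genes in the list, 7 were higher in all 4 plates (background 64.8%) and 1 was lower.

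Lipid mediator genes were partly present. Alox5 was at 827, 1217, 1069 and 1222 CPM and its activating protein gene Alox5ap at 656, 1123, 1092 and 877 CPM, both of the leukotriene branch. Hpgds, the prostaglandin D2 synthase gene of mast cells, was at 93.7, 151, 167 and 173 CPM. Ltc4s, the last step to leukotriene C4, was at 0 to 27.6 CPM against 10.8 to 21.4 CPM, and Ptgs2 and Alox15 were not counted. Of the 9 genes listed, 4 were higher in all 4 plates (background 64.8%) and 1 was lower.

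Cytokine transcripts were sparse apart from Ccl2. Of 14 genes measured, 6 were higher in all 4 plates (background 64.8%) and 1 was lower. Il6 was at 54.6, 47.2, 66.8 and 55.2 CPM, seen in 19 wells. Tnf was seen in 17 wells at 15.6 to 96.7 CPM, Il4 in 12 wells at 7.81 to 44.6 CPM and Il13 in 4. Csf2, Cxcl2, Tgfb1, Areg and Il1b were not counted in the mast cell wells. At these depths a plate's summed mast cell wells would show 3 UMIs at 20.7 to 33.4 CPM, so lower levels could not be seen. Further leading genes were Atp8b5, a phospholipid flippase gene (515, 755, 624 and 752 CPM), Lilrb4, an inhibitory receptor gene of leukocytes (375, 613, 835 and 670 CPM), and Laptm5, a lysosomal protein gene of blood cells (1452, 1793, 2395 and 1740 CPM).

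Markers of T cells, B cells, macrophages and granulocytes other than basophils were at or near 0. All 10 pan-leukocyte genes were higher in mast cell wells in all 4 plates (background 64.8%), with a summed level of 4106 to 5719 CPM against 155 to 235 CPM. Lcp1, the gene of the actin-bundling protein L-plastin, was at 457 to 764 CPM against 114 to 128 CPM. Of 6 T cell and intraepithelial lymphocyte genes measured, 5 were not counted in the mast cell wells of these plates, Cd3e, Cd3d and Cd3g among them, and the list summed to 0 to 9.44 CPM. Of 8 macrophage and dendritic cell genes, 4 were not counted, Lyz2 and Csf1r among them, and the sum was 0 to 18.9 CPM. The 3 neutrophil genes and the 1 eosinophil gene measured were not counted. The B and plasma cell list summed to 0 to 15.6 CPM. Of the 4 basophil genes, 2 were higher in all 4 plates (background 64.8%), Cd200r3 and Il4. The list, most of it Cd200r3, summed to 976 to 1319 CPM.

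Transcripts of the surrounding epithelium were counted in every mast cell well. Pgc, the pepsinogen C gene of chief and mucous gland cells, was at 71127 to 92417 CPM in mast cell wells and 74784 to 90383 CPM in other wells. In the 274 other wells no deeper than the deepest mast cell well, Pgc was higher, at 109844 CPM. Tff1 and Gkn2, secreted by pit cells, were at 9086 to 13702 and 6128 to 10884 CPM, below the other wells in all 4 plates. The same held for Tff2 of neck cells (624 to 991 CPM against 4870 to 7234 CPM), Gif of chief cells (89.1 to 132 CPM against 815 to 1123 CPM), Atp4b of parietal cells (178 to 757 CPM against 673 to 2942 CPM) and Chga of endocrine cells (890 to 1326 CPM against 2649 to 4453 CPM). Structural and adhesion genes of epithelial cells were also lower in all 4 plates: Epcam was at 0 to 34.5 CPM against 148 to 170 CPM, Krt8 at 148 to 302 CPM against 1088 to 1454 CPM and Cdh1 at 211 to 423 CPM against 815 to 997 CPM, and the 6 epithelial genes summed to 484 to 813 CPM against 2953 to 3857 CPM. Against the other wells of like depth some of these differences were small or absent. There Tff1 was at 13667 CPM and Atp4b at 551 CPM, inside the mast cell ranges, and Gkn2 at 11159 CPM, just above its range. Tff2 (3603 CPM), Gif (452 CPM), Epcam (266 CPM), Krt8 (666 CPM) and Cdh1 (826 CPM) stayed above the mast cell ranges. Rn45s, the ribosomal precursor transcript, was at 175157, 43502, 30524 and 61884 CPM in mast cell wells and at 103349, 73257, 56783 and 70245 CPM in other wells. Whether free RNA carried over between wells set these levels was not tested.

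**Figure D4:**
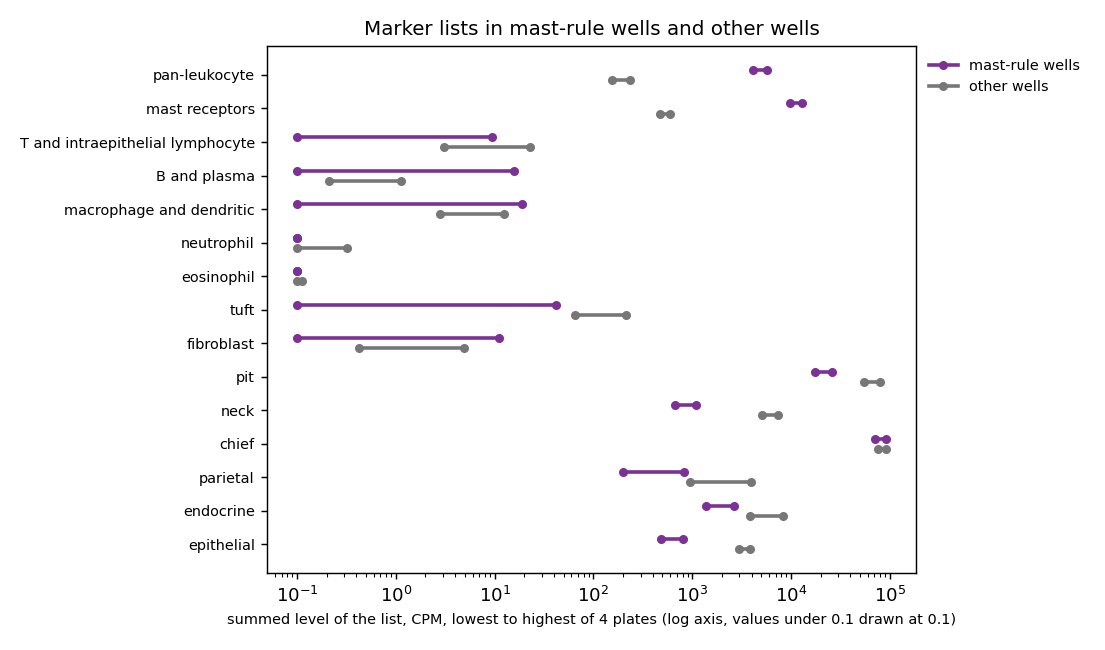
Summed level of marker lists (CPM, log axis, values under 0.1 drawn at 0.1), from the lowest to the highest of the 4 plates, in mast cell wells and other wells. Pan-leukocyte and mast cell receptor lists are higher in mast cell wells, and the other leukocyte lists drawn reach at most 18.9 CPM there. Chief cell transcripts (mostly Pgc) cover overlapping ranges in both. Other wells of like depth are not drawn apart. The basophil list (mostly Cd200r3), at 976 to 1319 CPM in mast cell wells, is not drawn.

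Immediate-early and heat shock genes known to respond to tissue dissociation were higher in mast cell wells. Of 12 listed, 10 were higher in all 4 plates (background 64.8%) and 1 was lower, with a median log2 ratio of 1.78. Jun was at 1413, 2161, 3487 and 2188 CPM against 297 to 428 CPM, and Fos at 624, 840, 1560 and 1968 CPM against 201 to 327 CPM. Atf3 was not counted. Depth and cell make-up both moved with this comparison. Over the 274 other wells no deeper than the deepest mast cell well, Fos was at 616 CPM, Jun at 498 CPM and Egr1 at 368 CPM. For Egr1 this was inside the mast cell range of 187 to 717 CPM. Against the pooled level of those wells, 8 of the 12 genes were higher in the mast cell wells of all 4 plates. As background, 465 of 790 genes were higher in all 4 against other wells of that depth, taken plate by plate. The 8 of 12 is a description only. Fos was higher by little, at 624 against 616 CPM. Those wells were rich in the endocrine transcript Chga, at 18727 CPM against 2649 to 4453 CPM in all other wells of a plate. Whether depth or make-up set these levels was not tested. A few wells held transcripts of dividing cells: Mki67 and Top2a together reached at least 5 UMIs in 5 of the 101 mast cell wells of these 4 plates (4.95%) and in 6 of those 274 other wells (2.19%, median 10366 UMIs). Corpus replicate 1 had 1 more such mast cell well. All 6 mast cell wells held Tpsb2, Mcpt2 and Cma1, and 5 of them Mcpt1. Of the proliferation list's most abundant genes, Pcna was at 96.7 to 234 CPM against 71.7 to 101 CPM, and Stmn1 was at 9.44 to 297 CPM, a range that held all 4 values of other wells.

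The second question was whether mast cells of the corpus and the pylorus differ. Counts were summed over the mast cell wells of a plate, scaled by the TMM method (trimmed mean of log ratios), and fitted in limma over 2 corpus and 2 pylorus plates, the only ones with at least 10 mast cell wells. Of 1666 genes tested, 1 had an adjusted p (Benjamini-Hochberg) under 0.05, or 0.06%, and 96 had an unadjusted p under that value. The one was Ccl2, higher in pylorus. The proteases that chose the wells, Gata2 and Il1rl1 did not pass. Without corpus replicate 3, the corpus plate with more Mcpt1, the log2 difference of Mcpt1 was 1.05. That fit leaves 1 corpus plate, so the spread between corpus plates is not measured. On the log2 scale (pylorus minus corpus, ± SE), Cpa3 differed by 0.33 ± 0.14, Tpsb2 by -0.15 ± 0.19, Mcpt1 by 0.43 ± 0.35, Mcpt2 by -0.22 ± 0.14, Cma1 by 0.26 ± 0.21, Tpsab1 by 0.01 ± 0.23, Gata2 by 0.11 ± 0.20 and Il1rl1 by 0.24 ± 0.18 (limma adjusted p from 0.813 to 0.999). The sum of the 6 chose the wells, so their levels are not free of the rule. The median over all 1666 genes was 0.05. Mcpt1 and Mcpt2 made up 60.9% and 52.8% of the rule UMIs in corpus replicates 3 and 4 and 49.5% and 59.1% in pylorus replicates 2 and 3. The plates overlapped, and an exact two-sided permutation test gave p = 0.667, where 2 against 2 plates cannot go below 0.333. In the 4 wells each of corpus replicate 1 and pylorus replicate 1 this share was 79.5% and 54.8%.

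Ccl2 encodes a chemokine that draws monocytes. Its TMM-scaled level was 276 CPM in corpus replicate 3, 228 in corpus replicate 4, 1007 in pylorus replicate 2 and 803 in pylorus replicate 3. The 2 regions did not overlap, with means of 252 ± 33.9 CPM (SD, n = 2) and 905 ± 144 CPM (SD, n = 2). The log2 difference was 1.83 ± 0.26 (SE) with a limma adjusted p of 0.0448. These sums rest on 32 and 26 UMIs in corpus plates and 95 and 114 UMIs in pylorus plates. Ccl2 was counted in 10 of 22, 12 of 24, 14 of 25 and 15 of 30 wells, and single wells carried much of it: 1 well held 16 of the 32 UMIs of corpus replicate 3, and the highest wells of the other plates held 5, 31 and 29. With wells thinned to 1000 UMIs it was seen in 13.6%, 20.8%, 40.0% and 33.3% of them, and in 0.141% of other wells (7.29% unthinned). The call rested on both pylorus plates. Without pylorus replicate 2 the difference was 1.53 with an adjusted p of 0.999 in limma, and without pylorus replicate 3 it was 1.99 with 0.879. It also missed the threshold without a filter on low counts (0.716), with wells thinned (0.121) and without the 5 wells holding at least 5 Mki67 and Top2a UMIs (1.54, 0.110). Over all alternatives run, its limma adjusted p ran from 2.01e-07, without corpus replicate 3, to 0.999. In pylorus replicate 1, outside this fit, Ccl2 had 0 of 8201 UMIs over 4 wells, which allows up to 366 CPM, below both pylorus plates of the fit. In corpus replicate 1 it had 0 of 8242 UMIs.

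Other values moved with Ccl2. In the other wells of the same plates Ccl2 was low, at 2.03, 2.06, 8.33 and 7.87 CPM, and also higher in both pylorus plates. Of the 12 dissociation-response genes, 11 were tested between regions and none passed. All 11 had higher fitted values in pylorus, with a median log2 difference of 0.62, and 8 of the 11 were higher without overlap between the plates, against 21.1% of all 1666 genes. Fos was at 691, 782, 1484 and 2009 TMM-scaled CPM (log2 1.23 ± 0.22, limma adjusted p = 0.0943), Dusp1 at 173, 132, 307 and 324 (1.06 ± 0.31, 0.434) and Junb at 665, 1098, 1643 and 1550 (0.90 ± 0.25, 0.434). Fos passed with a rule threshold of 2% (limma adjusted p = 0.0326), without corpus replicate 3 (0.0094), without corpus replicate 4 (0.0446) and without Rn45s and mitochondrial transcripts (0.0012). Junb passed without corpus replicate 4 (limma adjusted p = 0.0296), and Ier3 without Rn45s and mitochondrial transcripts (0.0031). In the other wells all 12 were higher in both pylorus plates than in both corpus plates, against 46.7% of the 1666 genes. Their part in the Ccl2 difference was not tested.

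**Figure D5:**
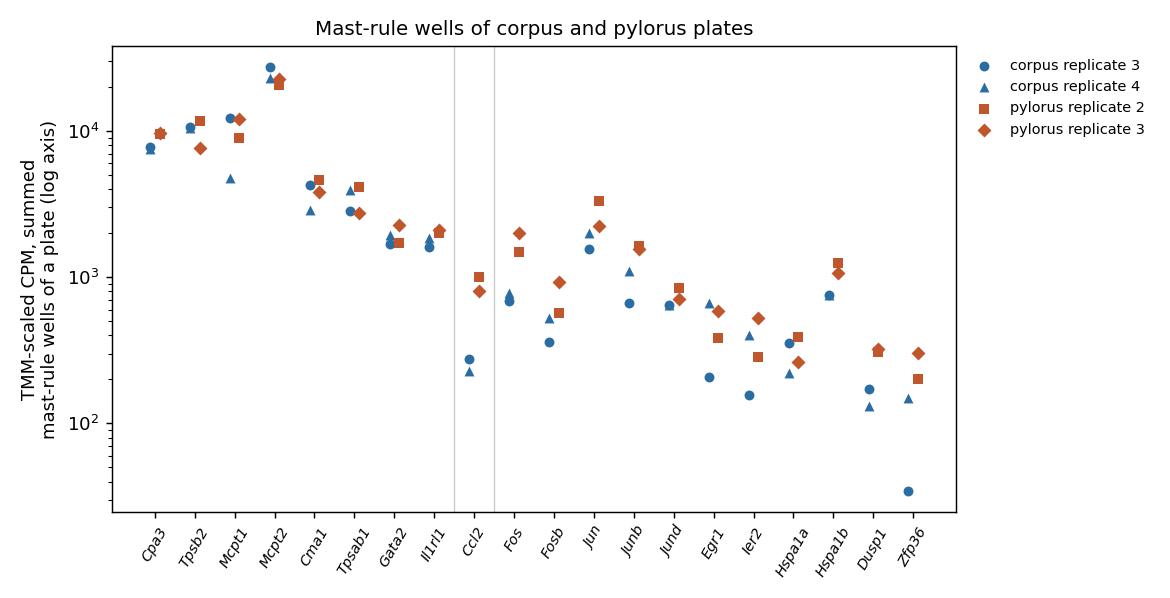
TMM-scaled CPM (log axis) of the summed mast cell wells of each plate for the 6 rule transcripts, Gata2 and Il1rl1 (left), Ccl2 (middle) and the 11 tested dissociation-response genes (right). Ccl2 is at 228 to 276 CPM in the corpus plates and 803 to 1007 CPM in the pylorus plates, while the rule transcripts other than Cpa3 and Mcpt2 overlap between regions. Of all 1666 genes tested, 351 were higher in pylorus without overlap and 220 were lower.

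The lists fixed for mast cell functions showed no other call. None of the 15 receptor genes tested passed (median log2 difference 0.10), nor did any of 7 transcription factor genes (0.11), 10 amine and granule storage genes (0.17), 3 eicosanoid genes (0.15) or 10 Fc epsilon signalling genes (0.13). The 3 cytokine genes tested, Ccl2, Csf1 and Ccl3, had a median of 1.77. Csf1, the macrophage growth factor gene, was at 34.5, 43.9, 148 and 127 TMM-scaled CPM (1.77 ± 0.58, limma adjusted p = 0.648) on 41 UMIs. Of the genes next in line after Ccl2, chosen here after their values were seen, several are products of the epithelium. Ghrl, the ghrelin gene of endocrine cells, was at 414, 132, 1259 and 1319 CPM in mast cell wells (log2 2.41 ± 0.48, limma adjusted p = 0.0943) and at 965, 565, 3601 and 3177 CPM in other wells. It passed in 7 of its 14 alternatives, among them those without corpus replicate 3 or without corpus replicate 4. Pla2g1b and Clps, genes of secreted lipid digestion proteins, had log2 differences of 0.81 ± 0.14 and 0.76 ± 0.15 with the same adjusted p, and other wells, from 19509 to 36615 CPM and from 19262 to 34701 CPM, were also higher in both pylorus plates. The noncoding transcript Kcnq1ot1 (0.92 ± 0.17, 0.0943) was at 6541, 10097, 17445 and 14304 CPM in mast cell wells, while in other wells the regions overlapped at 1192, 1462, 1216 and 1303 CPM.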

How the data were processed

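Each of the 7 deposited tables gives the authors' UMI counts per gene and well for 1 plate, whole numbers up to 4095, per the file headers and the values. The build was mm9, per the submitters' processing notes, and no aligner or counter is given in the sources used here. Cells were sorted and processed by CEL-seq2, per the labels' protocols.

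Wells with at least 1000 UMIs without spike-ins were kept. The members, the 27 gene lists and the comparisons were chosen with earlier results of these data known. Genes were named by rule: the 6 rule transcripts, Gata2 and Il1rl1 always, the 20 genes with the largest mean log2 ratio to other wells among those with at least 100 CPM and higher in all 4 plates, genes that passed between regions with at least 32 CPM and no overlap (up to 10 in each direction), and up to 4 passing members of each list or else its 2 most abundant. Other genes of the lists were named from their values. Of the 20 genes with the largest ratio, 1 is not reported here. Mast cell wells were compared with other wells without a test.

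A count model was planned for the regions. The tables hold counts, but the unit check used here did not read their layout as counts, so the count model was not run. In its place limma 3.58.1 (R 4.3.3) was used, with a mean trend, on log2 of TMM-scaled CPM plus 2 (30% of log ratios and 5% of abundances trimmed). Genes needed 10 counts at the median library size in 2 plates and 15 in total. Mast cell wells summed to 89767 to 144851 UMIs a plate. On simulated counts for this comparison (1721 genes), limma recovered 48% of 100 genes changed 2-fold and 92% of 100 changed 4-fold, with 5 false calls among 145. The simulation gave every gene the same median spread between plates, so these rates need not hold for genes that vary more. Shares were compared by exact two-sided permutation tests. Thinning drew 1000 UMIs from each well. Alternatives varied the rule's threshold (1% or 2%), the well minimum (2000 UMIs), scaling, pseudocount (0.5), filter, thinning and each plate, and 4 more, 1 of which left out 37 rows of Rn45s and mitochondrial transcripts, were chosen after seeing the data. Promoters came from RefSeq (GRCm38.p6), with no coordinates in the build of the files.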

Additional observations from a re-analysis of the deposited data

Results flagged for a closer look

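Wells under 1000 UMIs were not used in any comparison. Of the 453 such wells, 4 held at least 3 UMIs of the 6 rule transcripts at 0.5% or more of their UMIs. They were 1 well each of corpus replicate 1 (17 of 691 UMIs, 2.46%), corpus replicate 3 (3 of 398, 0.754%), pylorus replicate 1 (21 of 340, 6.18%) and pylorus replicate 2 (32 of 756, 4.23%). The highest share in a kept well outside the rule was 0.160%. Counting these wells would add 1 each to the 4 mast cell wells of corpus replicate 1 and of pylorus replicate 1.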

How the results depend on the processing

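The share of mast cell wells stayed higher in pylorus than in corpus plates without passing the test under all its alternatives. Leaving out 1 plate gave differences of 0.554 to 3.82 percentage points, and the replicate block, pairing replicates 1 to 3 by number, gave 3.02 (exact permutation p = 0.25, the smallest 3 pairs allow). Nothing in the labels says that a number marks a shared animal or day. No paired analysis was possible for the gene fit and the Mcpt1 and Mcpt2 share because their plates share only replicate number 3. That share differed by -2.56 percentage points (pylorus minus corpus), from -7.33 to 2.22 without 1 plate, with its direction turned without corpus replicate 3 (1.46) or pylorus replicate 2 (2.22). The number of genes higher in mast cell wells fell from 512 of 790 to 328 of 554 with wells thinned to 1000 UMIs, where fewer genes reached 100 CPM. Against only those other wells no deeper than the deepest mast cell well, an alternative chosen after seeing the data, it was 465.

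The single call between regions became 3 with a threshold of 2%, 2 each with median-of-ratios or all-UMI scaling, 0 of 12397 genes without a filter, 5 without corpus replicate 3, 15 without corpus replicate 4, and 0 without pylorus replicate 2 or without pylorus replicate 3. A plate left alone in its region was assumed to vary like the others. Of alternatives chosen after seeing the data, leaving out Rn45s and mitochondrial transcripts gave 14 calls, and leaving out the 5 wells with dividing-cell transcripts gave 0. The cause was not tested. Count models were not run.

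Over all 60 genes taken by the naming rule or from the lists, 751 of 823 alternatives kept the direction between regions. The 72 others fell in 31 genes, and 0 of them passed the limma threshold there or concerned the gene called. Single values are given for 20 genes, a choice made after these counts were seen: 261 of their 276 alternatives kept the direction. The others were small differences in 5 genes, given here with the range without 1 plate: Tpsb2 (-0.60 to 0.14) without pylorus replicate 3 (0.14) and thinned (0.0024), Mcpt1 (-0.26 to 1.05) without corpus replicate 4, Cma1 (-0.022 to 0.47) without corpus replicate 4 (-0.022) or pylorus replicate 2 (-0.019), Tpsab1 (-0.43 to 0.31) without corpus replicate 3 (-0.29) or pylorus replicate 2 (-0.43), with the 2000 UMI minimum (-0.035), median-of-ratios scaling (-0.053) or thinning (-0.24), and without Rn45s and mitochondrial transcripts (-0.040) or the 5 dividing wells (-0.0054), and Gata2 (-0.091 to 0.21) at 2% (-0.045) and without corpus replicate 3 (-0.052) or pylorus replicate 3 (-0.091). Of the 19 genes not called, 7 passed under at least 1 alternative: Mcpt1, Fos, Junb, Ier3, Ghrl, Pla2g1b (without Rn45s and mitochondrial transcripts) and Kcnq1ot1 (without these or without corpus replicate 4). For Mcpt1 this was only the fit without corpus replicate 3, which left 1 corpus plate. Depth limited genes below about 20.7 to 33.4 CPM.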

Other observations

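A few genes outside the lists, chosen after their values were seen, were also far higher in mast cell wells. Cyp11a1, which encodes the side-chain cleavage enzyme that starts steroid synthesis, was at 242, 179, 245 and 249 CPM (corpus replicates 3 and 4, pylorus replicates 2 and 3) against 0.687 to 0.857 CPM in other wells, and was counted in 67 of 109 wells. Ctla2a, a cysteine protease inhibitor gene, was at 1171, 434, 1036 and 787 CPM against 4.12 to 5.06 CPM. The nuclear noncoding transcripts Kcnq1ot1 and Malat1 were higher too, Kcnq1ot1 at 6541 to 17445 CPM against 1192 to 1462 CPM, and Malat1 at 8508 to 11154 CPM against 3755 to 4989 CPM. In the 274 other wells no deeper than the deepest mast cell well Malat1 was at 8361 CPM, close to the mast cell wells, and Kcnq1ot1 at 2115 CPM.

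Ms4a2 was counted in wells outside the rule in all 7 plates, most often in corpus replicate 2. In corpus replicate 2, which held no mast cell well, 19 of 279 kept wells held 37 Ms4a2 UMIs, up to 8 in a well, and 18 wells held 37 Kit UMIs, up to 6 in a well, while Gata2, Il1rl1, Tph1 and Fcer1g were not counted there. The median of Gif, the intrinsic factor gene of chief cells, was 556 UMIs in those 19 wells and 5 UMIs in the other 260. Whether these are mast cell transcripts was not tested. In the other 6 plates, wells outside the rule held 3 to 14 Ms4a2 UMIs a plate.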
